A study of Mus musculus with 1279 samples.

Results

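The immediate early and dissociation stress genes form a list of 39 gene symbols, which were looked up in the heart count table of a single-cell study of fibroblasts and mural cells. All 39 had 1 row each among the 46517 genes of the table. Each of the 1279 samples was 1 cell, sequenced with Smart-seq2, a plate-based method that reads full-length cDNA without molecular identifiers. All cells came from hearts of adult male mice 10 to 20 weeks old on a C57Bl6/J background. The authors' clusters 1 to 5 (926 cells) were fibroblasts, the matrix-producing cells of connective tissue. Clusters 6 to 8 (353 cells) were the mural side, cells of the vessel wall such as pericytes and smooth muscle. C57BL6 mice, with 581 cells, carried no reporter and their cells were sorted with antibodies to PDGF receptors. PdgfrbGFP mice, with 364 cells, and Cspg4dsRED and Acta2GFP mice, with fewer, carried a fluorescent reporter driven by regulatory sequence of Pdgfrb, Cspg4 or Acta2, so each reporter sort enriched for the cells in which that promoter is active. Hearts were cut up and digested with collagenase at body temperature before sorting, and for Acta2GFP elastase was added to the enzyme mix. The labels named no animal, and strain, sort, enzyme mix and plate cannot be told apart here.

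Immediate early genes are switched on within minutes of a stimulus, without new protein synthesis, by transcription factors that are already present in the cell, such as serum response factor and CREB. Many encode transcription factors themselves, among them the Fos and Jun subunits of AP-1, and others encode proteins that end the response, such as the phosphatase Dusp1 and the mRNA-destabilising Zfp36. Warm enzymatic digestion of a tissue is known to induce these genes and the heat shock chaperones in freshly isolated cells, and the same genes also respond to growth factors, mechanical load and injury in the intact heart.

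Promoter sequences are shown for 6 genes of the list, because between them they hold a match to each of the DNA elements searched, which are known from the induction of such genes. They are the 250 bases before the transcription start in RefSeq (build GRCm38.p6), read 5′ to 3′ on the strand of the gene, and capitals mark a match on either strand to a cAMP response element (TGACGTCA), its shorter core (TGACG, which also lies inside the former), a CArG box, a pair of heat shock units (GAANNTTC) or a TATA box (TATAAA). Fos (chr12:85473640-85473889, plus strand), Dusp1 (chr17:26508473-26508722, minus), Zfp36 (chr7:28379229-28379478, minus), Atf3 (chr1:191183334-191183583, minus), Hspa1a (chr17:34972157-34972406, minus) and Hspa1b (chr17:34959239-34959488, minus) read as follows.
Fos: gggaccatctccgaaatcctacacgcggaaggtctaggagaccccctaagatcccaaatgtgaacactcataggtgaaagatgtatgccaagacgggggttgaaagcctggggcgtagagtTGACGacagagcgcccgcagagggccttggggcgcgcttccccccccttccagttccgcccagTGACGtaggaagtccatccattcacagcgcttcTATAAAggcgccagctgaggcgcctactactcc
Dusp1: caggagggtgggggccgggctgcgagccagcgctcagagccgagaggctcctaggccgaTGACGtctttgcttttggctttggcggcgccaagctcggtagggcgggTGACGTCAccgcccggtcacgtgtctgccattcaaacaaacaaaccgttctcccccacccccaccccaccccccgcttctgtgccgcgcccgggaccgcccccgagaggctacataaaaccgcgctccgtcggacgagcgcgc
Zfp36: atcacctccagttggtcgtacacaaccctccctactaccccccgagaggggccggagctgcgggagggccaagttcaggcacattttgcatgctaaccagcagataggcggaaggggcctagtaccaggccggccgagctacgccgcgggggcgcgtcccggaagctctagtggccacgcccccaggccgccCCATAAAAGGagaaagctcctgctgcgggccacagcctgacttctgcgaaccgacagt
Atf3: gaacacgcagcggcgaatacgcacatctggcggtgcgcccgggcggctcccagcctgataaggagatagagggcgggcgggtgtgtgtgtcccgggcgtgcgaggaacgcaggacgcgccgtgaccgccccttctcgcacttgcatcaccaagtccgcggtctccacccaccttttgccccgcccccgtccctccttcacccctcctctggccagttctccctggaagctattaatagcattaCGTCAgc
Hspa1a: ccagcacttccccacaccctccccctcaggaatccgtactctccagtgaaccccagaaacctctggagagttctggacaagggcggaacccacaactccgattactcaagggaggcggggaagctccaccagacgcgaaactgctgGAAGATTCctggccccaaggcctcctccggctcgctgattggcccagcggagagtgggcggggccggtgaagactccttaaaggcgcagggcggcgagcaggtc
Hspa1b: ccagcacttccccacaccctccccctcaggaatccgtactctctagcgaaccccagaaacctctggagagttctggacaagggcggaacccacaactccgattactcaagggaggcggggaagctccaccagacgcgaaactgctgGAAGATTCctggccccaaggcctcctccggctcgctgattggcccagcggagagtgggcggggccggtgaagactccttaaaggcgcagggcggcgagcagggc

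Of the 39 genes, 33 had a RefSeq promoter in the table used, with 48 start sites between them. No entry was found for Myc, Hspa8, Egr1, Ier2, Egr3 and Hsp90aa1. The full cAMP response element was present before Btg2, Dusp1, Maff and Ppp1r15a, in 4 of the 48 promoters, against 1.55% of all 32851 promoters of this length. The shorter core was found for 17 of the 33 genes, in 23 of 48 promoters, against 17.8% of all promoters. A CArG box, the site of serum response factor, stood before Egr2 and Zfp36, in 5 of 48 promoters (1.47% of all promoters). A TATA box stood before 6 genes, Fos, Gadd45b, Gadd45g, Nr4a2, Sgk1 and Zfp36l1, in 7 of 48 promoters (12.4% of all). The paired heat shock units were found for Fosl2, Hspa1a, Hspa1b, Jun and Sgk1, in 6 of 48 promoters (6.69% of all). Each match is a description of these letters in this window and not a known binding site. The promoters of Hspa1a and Hspa1b had the same letter at 98.8% of their 250 bases, and 58.8% of the 50-base windows of Hspa1a and 62.3% of those of Hspa1b also occurred in the other gene, so reads could be split between this pair and their separate values are uncertain.

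The cells differed in depth and in quality measures. Counts per cell, with the ERCC spike-ins left out, spanned 46268 to 1302397 (median 274504), and a cell had between 1626 and 9383 genes with a count. Mitochondrial genes took 0.337 to 10.3% of the counts of a cell and ERCC spike-ins 0.247 to 9.76%. No pair of columns was identical. Clusters 7 and 8 differed in their markers: 4 smooth muscle markers summed to between 10670 and 15717 CPM (counts scaled to a library total of 1e+06) over the strains in cluster 7 and to between 201.1 and 4033 CPM in cluster 8, whereas 4 pericyte markers summed to between 353 and 1753 CPM in cluster 7 and to between 4057 and 15046 CPM in cluster 8. Cluster 6 held smooth muscle markers at 9946 to 13384 CPM together with fibroblast markers at 2709 to 13185 CPM. Its 5 mural markers summed to 781 to 2446 CPM, against 5658 to 10826 CPM in cluster 7 and 5239 to 11764 CPM in cluster 8. Fibroblast markers also differed between the pair of clusters 7 and 8, at 154.8 to 695 CPM in the former and 780 to 4641 CPM in the latter. The 4 endothelial markers summed to at most 20.8 CPM in clusters 7 and 8 but reached 175.03 CPM in cluster 1 and 273.7 CPM in cluster 6, where 4 cardiac muscle markers reached 1475 CPM. The 4 immune markers summed to at most 27.2 CPM in cluster 8, where Ptprc, Cd68 and Cd3e were at 0, and reached 184.5 CPM in cluster 7. The part of these other cell types in the results was not tested.

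The list was strongly expressed in these cells, and together the 39 genes took 2.33% of all counts. The AP-1 group, 8 genes for the Fos and Jun subunits and the related leucine zipper factors Atf3 and Maff, took 0.734%. The 10 immediate early proteins and feedback inhibitors took 0.715%, the 6 EGR and NR4A factors 0.406%, the 5 heat shock proteins 0.203%, the 6 growth arrest, survival and kinase genes 0.166% and the 3 Krüppel-like factors with Myc 0.105%. Egr1, a zinc finger factor (12.04% of the counts of the list), Fos (11.96%) and the MAP kinase phosphatase gene Dusp1 (8.20%) contributed most.

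Levels of different genes were compared per kilobase of exon. By this measure Fos stood highest, at 1185 CPM per kb over all cells, followed by Ier2, a short nuclear protein of the immediate early class, at 846 and by Junb at 822. Egr1 stood at 626, Dusp1 at 577, Jun at 446 and Zfp36, which binds AU-rich elements to shorten the life of cytokine mRNAs, at 391 CPM per kb. These 7 genes had a count in 96.9 to 100% of the cells, and Fos in 1279 of 1279. After thinning to a common depth of 50000 counts (2 shallower cells dropped), Fos was found in 99.5% of cells.

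A middle group held the orphan receptor Nr4a1 at 314, the stress sensors Gadd45g at 314 and Gadd45b at 131.2, the antiproliferative gene Btg2 at 310 and Atf3 at 218.6 CPM per kb. Nfkbia, which encodes the inhibitor of NF-kappaB, was at 213.6, the survival factor Ier3 at 210.02, Ppp1r15a, whose product helps to reverse the translational block of the stress response, at 199.2, and Jund at 197.1. Socs3, an inhibitor of cytokine signalling, stood at 182.3, and Zfp36l1, a relative of Zfp36, at 179.2. Klf2, a Krüppel-like factor induced by flow in endothelium, stood at 144.2, and the small GTPase gene Rhob at 130.3. Most of the chaperone genes fell in the same range, Hspa1a at 172.8, the Hsp40 co-chaperone Dnajb1 at 170.3, the constitutive Hspa8 at 121.5 and Hsp90aa1 at 104.6 CPM per kb.

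The remaining 15 genes were lower. Klf4 (84.5), Klf6 (77.5), Myc (68.9) and Fosb (60.01) led them, followed by Egr2 (26.8), the anti-apoptotic gene Mcl1 (26.2), the kinase gene Sgk1 (20.9), Ier5 (20.7) and Hspa1b (13.1 CPM per kb). Nr4a2 (9.28), Csrnp1 (9.13), Fosl2 (6.27), Nr4a3 (4.19) and Maff (4.10) were lower still and had a count in 16.1 to 39.9% of cells. Egr3 was lowest, at 0.160 CPM per kb with a count in 23 of 1279 cells, and it passed the filter on low counts in 1 of the 8 comparisons. Reads over shared bases may also be counted for a neighbour: Gm11175 covered 52.6% of the exon bases of Jund and Gm26669 covered 55.9% of those of Zfp36l1, and the strand setting of the counting was not given in the sources used here.

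The summed level of the 39 genes differed between clusters. Pooled over strains, the order of its median per cell among fibroblasts, from high to low, was cluster 5 (35287 CPM), cluster 3 (31847 CPM), cluster 2 (23661 CPM), cluster 4 (20340 CPM) and cluster 1 (12699 CPM). This order did not hold within each strain: in PdgfrbGFP cluster 4 (22215 CPM) lay below cluster 1 (23253 CPM), and in Cspg4dsRED cluster 2 (9039 CPM) lay below cluster 4 (12640.5 CPM). Of the mural clusters, also pooled over strains, cluster 7 stood at 20454 CPM, cluster 6 at 7653 CPM and cluster 8 at 5481 CPM. The gap varied by strain: in Acta2GFP cluster 7 stood at 10540 CPM, against 7339 (cluster 6, 3 cells) and 8034 CPM (cluster 8), and the 3 cluster 6 cells of C57BL6 had a median of 27208 CPM. Cluster 8 was lowest in 3 of 4 strains, where its medians were 6313 (C57BL6), 5509 (PdgfrbGFP) and 3731 CPM (Cspg4dsRED). In Acta2GFP, cluster 1 was lowest at 6573 CPM and cluster 8 stood at 8034 CPM. Leaving out the 3 most abundant genes of the list gave the same lowest cluster in every strain, whereas by the median of the mean log2 level of the genes cluster 6 was lowest in Acta2GFP.

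**Figure D1:**
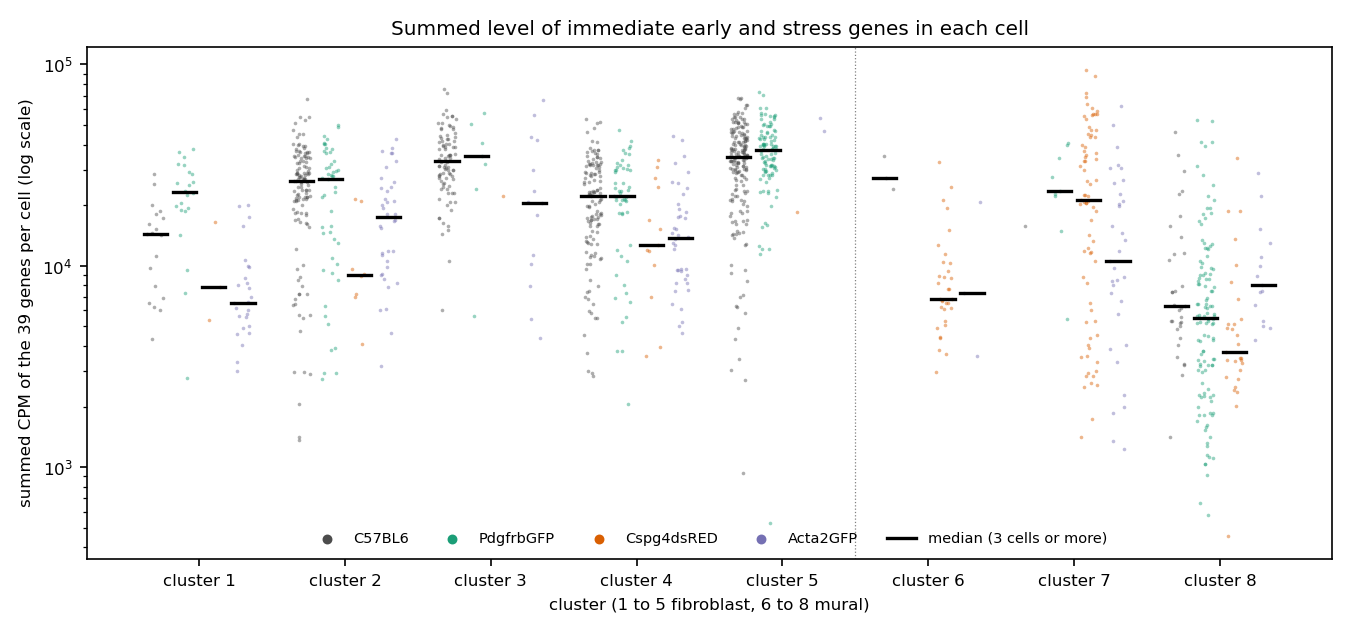
Summed CPM of the 39 genes in each cell (log scale) by cluster, coloured by strain, with black bars for the median of each strain with 3 cells or more. Cluster 8 lies low in every strain, with medians between 3731 and 8034 CPM, and the Cspg4dsRED cells of cluster 7 spread widely, with quartiles of 6264 and 43607 CPM.

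Among clusters with 3 cells or more of a strain, the highest median was that of cluster 5 in C57BL6 (34646 CPM) and PdgfrbGFP (37573 CPM), cluster 7 in Cspg4dsRED (21207 CPM) and cluster 3 in Acta2GFP (20568 CPM). Cluster 5 had only 1 cell in Cspg4dsRED (18567 CPM) and 2 cells in Acta2GFP, whose median of 50223 CPM lay above cluster 3, and the single cluster 3 cell of Cspg4dsRED had 22107 CPM. The order of neighbouring clusters within a strain was not tested.

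Low cells were common among mural cells. A sum under 10000 CPM, that is 1% of the counts, was found in 22 of 37 mural cells of C57BL6 and in 27 of 51 of Acta2GFP, against 59 of 544 fibroblasts of C57BL6 and 50 of 120 of Acta2GFP. The median sum of mural cells was 7392 CPM in C57BL6, 5678 CPM in PdgfrbGFP, 8868 CPM in Cspg4dsRED and 8866 CPM in Acta2GFP, and that of fibroblasts was 28684, 30074, 11926 and 12877 CPM, so mural cells were lower by this measure in every strain. Depth was set beside the sums with strains pooled. Cluster 8 had the fewest counts, with a median of 167874 counts and 4.03% ERCC per cell. Cluster 6, also low in its sum, had 345475 counts and 1.47%, and 33 of its 39 cells came from Cspg4dsRED. Among fibroblasts the order of the sums, from high to low, was clusters 5, 3, 2, 4 and 1. In that order the counts were 258505, 283416, 314829, 349816 and 333384. The ERCC shares were 2.16, 1.86, 1.73, 1.45 and 1.403%. The counts thus rose as the sum fell, except in cluster 1, and the ERCC share fell with the sum. Mural cells were shallower than fibroblasts in C57BL6 (222757 against 304386 counts), PdgfrbGFP (147298 against 286768) and Cspg4dsRED (247671 against 409248). In Acta2GFP the mural cells were deeper (330445 against 295394 counts) and also had the lower sum. The ERCC share was higher in mural cells in every strain. It was 2.93, 4.71, 2.21 and 1.28% in C57BL6, PdgfrbGFP, Cspg4dsRED and Acta2GFP, against 1.85, 1.96, 1.28 and 0.907% in fibroblasts. The mitochondrial share was higher in mural cells in 4 of 4 strains, with medians of 2.16, 3.23, 2.12 and 2.01% in C57BL6, PdgfrbGFP, Cspg4dsRED and Acta2GFP, against 1.61, 1.59, 1.08 and 1.37% in fibroblasts. The part of depth and of the mitochondrial share in the sums was not tested.

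The groups of the list were also summed apart, with strains pooled. The AP-1 group had a median sum per cell of 11330 CPM in cluster 5, against 6457 (cluster 7) and 618 CPM (cluster 8). The Krüppel-like factors and Myc stood at 1295, 281.2 and 33.02 CPM in the same clusters, and the EGR and NR4A factors at 5874, 1410 and 198.3 CPM. The heat shock proteins stood at 2271, 2818 and 854 CPM. These medians are pooled over strains, and within strains the order turned, since in PdgfrbGFP the heat shock sum was 3676 CPM in cluster 5 and 2829 CPM in cluster 7.

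**Figure D2:**
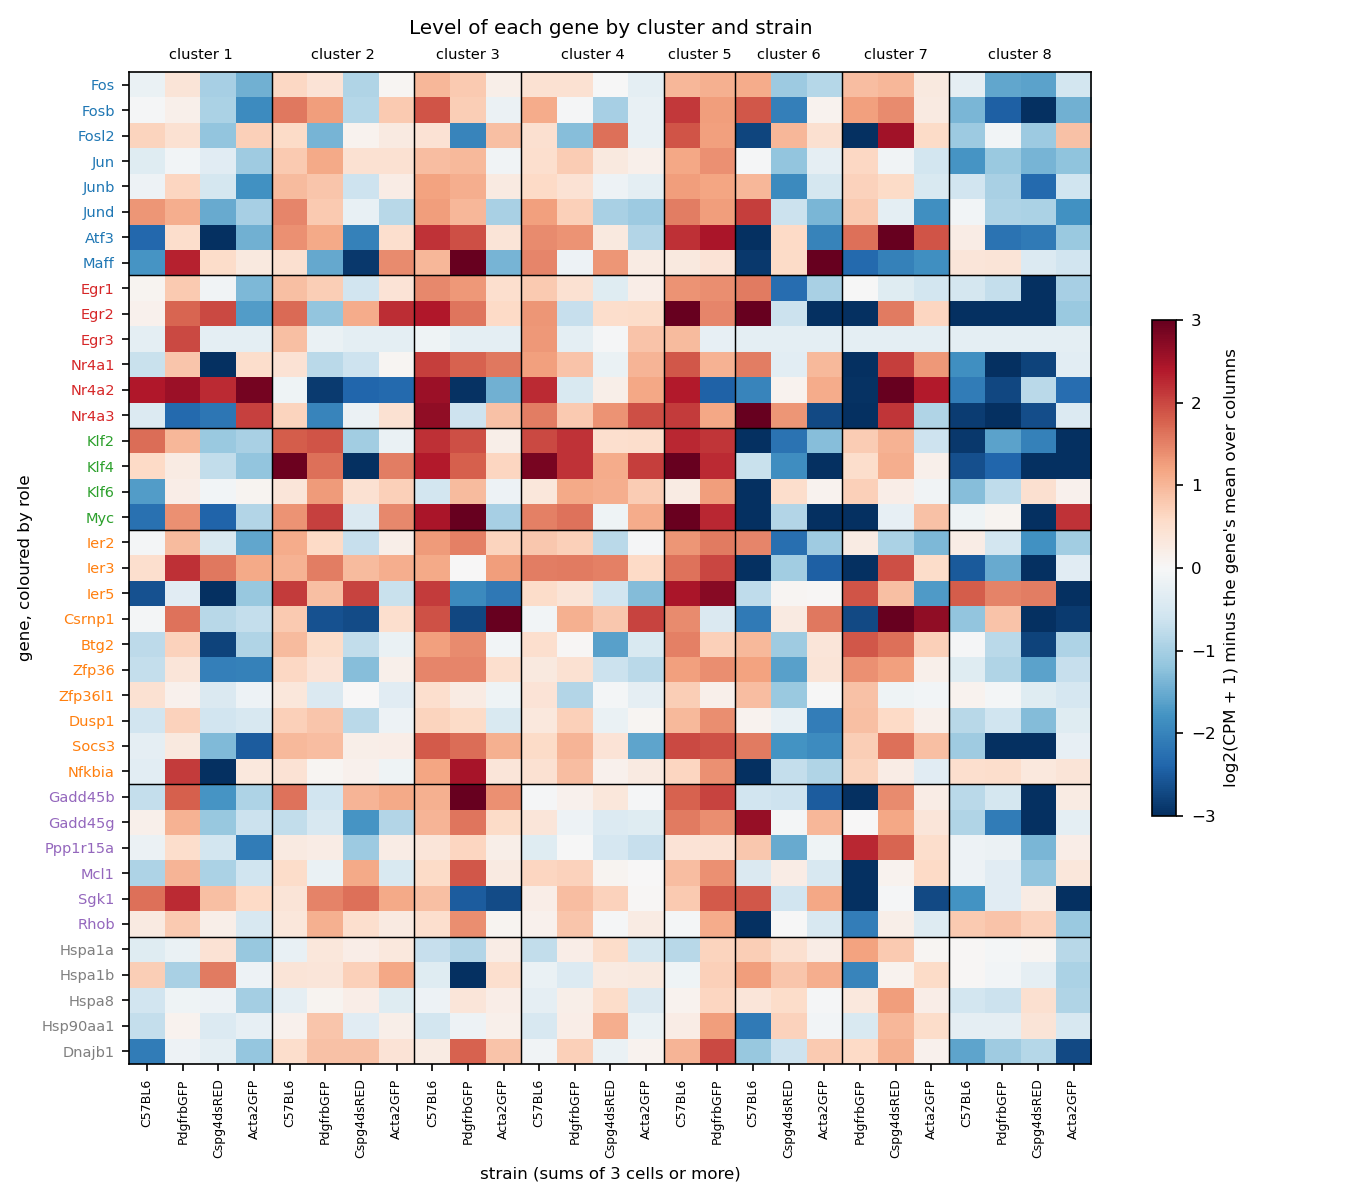
Each row is 1 gene, coloured by role, and each column the summed cells of 1 strain in 1 cluster; the colour gives log2(CPM + 1) minus the mean of the gene over the columns. The columns of cluster 8 are blue for most AP-1, EGR, NR4A and Krüppel-like factor genes, and those of cluster 5 are red for most genes.

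Fibroblasts were compared with mural cells to ask whether the levels of the list differed between the cell classes. Counts were summed per strain and side, so the 4 strains were the replicates, and in such sums fewer expressing cells and less RNA per cell cannot be told apart. The clusters had been made by the authors from the same counts. In C57BL6 all 37 mural cells came from plate heart_203s, whereas the fibroblasts came mainly from heart_203s and heart_316s. Of 38 genes tested, 3 passed as higher in fibroblasts (edgeR quasi-likelihood F test, adjusted p under 0.05), Jun, Klf4 and Sgk1, and 0 passed as lower. Over all 15117 genes tested, 3.47% were called higher and 2.45% lower, and a count of 3 in a list of this size is close to that background.

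Jun (ENSMUSG00000052684, chr4:95049034-95052222 in GRCm38, as are all gene positions here), the prototype AP-1 subunit, had 1729 CPM in fibroblasts of C57BL6, 2007 CPM in PdgfrbGFP, 1212 CPM in Cspg4dsRED and 1014 CPM in Acta2GFP. In mural cells it had 355, 547, 654 and 593 CPM in the same strains. All fibroblast values lay above all mural values, and the fitted log2 difference was 1.48 (SE 0.33, n = 4 strains a side, edgeR adjusted p = 0.0253).

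Klf4 (ENSMUSG00000003032, chr4:55527143-55532466), a factor that represses smooth muscle genes in dedifferentiating cells, had 422, 229.6, 60.8 and 153.8 CPM in fibroblasts of C57BL6, PdgfrbGFP, Cspg4dsRED and Acta2GFP. The mural values were 30.7, 17.6, 67.7 and 38.8 CPM. Fibroblasts were higher in 3 of 4 strains and the ranges overlapped through Cspg4dsRED, with a log2 difference of 2.52 (SE 0.60, edgeR adjusted p = 0.0357).

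Sgk1 (ENSMUSG00000019970, chr10:21882184-21999903), a kinase gene induced by serum and glucocorticoids, had 96.01, 187.7, 131.4 and 96.2 CPM in fibroblasts and 41.8, 44.6, 57.2 and 19.4 CPM in mural cells. The groups did not overlap. The log2 difference was 1.65 (SE 0.42, edgeR adjusted p = 0.0467).

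None of the 3 calls held in every setting. Without clusters 1 and 6, Jun (edgeR adjusted p = 0.0269) and Klf4 (0.0472) passed and Sgk1 (0.114) did not, with 7.27% of all genes called. With both sides taken from the same plate, which left out heart_316s, Jun (edgeR adjusted p = 0.0366) and Klf4 (0.0374) passed and Sgk1 (0.0506) did not, with 5.87% of all genes called. With strain as a block, Sgk1 (adjusted p = 0.0420) and Egr1 (log2 difference 1.07, adjusted p = 0.0481) were called and Jun (0.0613) and Klf4 (0.160) were not, against 2.71% of all genes called higher. The adjusted p over 14 alternatives ran from 0.000857 to 0.837 for Jun, from 0.000970 to 0.810 for Klf4, from 0.00508 to 0.326 for Sgk1 and from 0.0385 to 0.614 for Egr1. Without C57BL6, without PdgfrbGFP or without Acta2GFP 0 genes of the list were called (2.79, 2.66 and 2.7% of all genes were), and without Cspg4dsRED Klf4 and Klf2 were (3.91%).

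The direction was shared by most of the list but not by every strain. The log2 difference was above 0 for 32 of 38 genes, with a median of 0.61 against -0.02 over all genes. This median rested in part on single strains, at 0.27 without PdgfrbGFP (28 above and 10 below 0) and 1.04 without Cspg4dsRED. Of the list, 10 of the 38 had an unadjusted p under 0.05, all higher in fibroblasts, against 17.02% of all genes with such a p. Higher in every strain were 11 genes (17.7% of all genes), and 0 were lower in every strain (11.9%). By group, 8 of 8 AP-1 genes, 4 of 5 EGR and NR4A genes, 4 of 4 Krüppel-like factors with Myc, 8 of 10 immediate early and feedback genes, 5 of 6 growth arrest and survival genes and 3 of 5 heat shock genes lay above 0.

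For several abundant genes the difference varied in size or sign between strains. Egr1 had 3748, 3488, 1382 and 1947 CPM in fibroblasts of C57BL6, PdgfrbGFP, Cspg4dsRED and Acta2GFP, against 1697, 1143, 836 and 1068 CPM in mural cells. Fibroblasts were higher in 4 of 4 strains, although the ranges overlapped. Fos had 3372, 3320, 1645 and 1717 CPM in fibroblasts and 1979, 994, 2451 and 1991 CPM in mural cells, so it was higher in fibroblasts in 2 strains and lower in the other strains.

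Junb, the AP-1 subunit that often accompanies Fos, had 2469, 2304, 1037 and 1110 CPM in fibroblasts and 1079, 772, 1094 and 883 CPM in mural cells. Nr4a1 (chr15:101254269-101274795), the orphan nuclear receptor also known as Nur77, had 1435, 892, 467 and 944 CPM in fibroblasts and 308, 28.8, 1264 and 984 CPM in mural cells. Neither pair of groups was separated, and for both genes the Cspg4dsRED value was higher in mural cells.

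Atf3, a factor induced by many forms of stress, had 557, 567, 106.8 and 151.8 CPM in fibroblasts and 162.6, 81.4, 771 and 377 CPM in mural cells. The log2 difference within a strain was 1.77 in C57BL6 and 2.79 in PdgfrbGFP, but -2.84 in Cspg4dsRED and -1.31 in Acta2GFP. The ranges overlapped, and the difference between the strains was not tested.

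Dusp1 had 2144, 2750, 960 and 1211 CPM in fibroblasts and 864, 1052, 1491 and 1244 CPM in mural cells. Zfp36 had 1653, 1684, 558 and 732 CPM in fibroblasts and 870, 663, 1215 and 865 CPM in mural cells. Both followed the same split by strain, with the higher side in fibroblasts of C57BL6 and PdgfrbGFP and in mural cells of Cspg4dsRED and Acta2GFP.

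The heat shock genes had the smallest median difference of the groups (0.18). Hspa1a, the inducible Hsp70, had 357, 695, 758 and 473 CPM in fibroblasts and 590, 592, 806 and 484 CPM in mural cells. Hspa1b had 32.1, 37.03, 48.1 and 48.7 CPM in fibroblasts and 37.1, 27.9, 40.2 and 39.8 CPM in mural cells, and Hspa8 had 454, 628, 661 and 378 CPM against 383, 347, 955 and 465 CPM. The ranges of all 3 overlapped, and none passed the test, which does not show that they are equal.

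The mural side differed in makeup between the strains. Cluster 8 supplied 33 of 37 mural cells of C57BL6 and 15 of 51 of Acta2GFP. It was also the largest mural cluster of PdgfrbGFP, where cluster 7 had 9 cells, whereas Cspg4dsRED had 75 cells of cluster 7 and 29 of cluster 8. The mural side was therefore also taken 1 cluster at a time, an alternative chosen after seeing the data. Against cluster 8 alone, 37 of 38 genes lay above 0 in fibroblasts, with a median log2 difference of 1.19 (-0.10 over all genes), and 6 passed the test as higher, Klf4, Egr2, Klf2, Fosb, Dnajb1 and Jun. The fitted log2 differences were 4.12 (SE 1.10, edgeR adjusted p = 0.0475) for Egr2, a zinc finger factor related to Egr1, 3.63 (SE 0.67, 0.0104) for Klf2, 2.63 (SE 0.62, 0.0281) for the AP-1 subunit gene Fosb, 1.99 (SE 0.45, 0.0226) for Dnajb1 and 1.87 (SE 0.33, 0.00841) for Jun. Egr2 had 147.3, 51.6, 52.4 and 69.2 CPM in fibroblasts of C57BL6, PdgfrbGFP, Cspg4dsRED and Acta2GFP, against 2.44, 0.755, 0.450 and 12.8 CPM in cluster 8. Klf2 had 386, 370, 94.7 and 90.9 CPM against 11.5, 29.2, 21.6 and 9.41 CPM. Both were separated. Fosb had 568, 326, 112.8 and 188.3 CPM against 67.2, 31.4, 16.3 and 64.2 CPM, and Dnajb1 had 516, 935, 468 and 424 CPM against 122.3, 177.5, 205.3 and 56.01 CPM. These groups did not overlap either. In cluster 8, Jun stood at 284.8, 444, 366 and 418 CPM and Klf4 at 8.54, 10.3, 0.750 and 2.54 CPM, below every fibroblast value given above. The share of all 13692 genes called was 5.06% higher and 2.37% lower.

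C57BL6, with 1 cell of cluster 7, was left out of the fit against cluster 7 alone, whereas the fit against cluster 8 used 4 strains. Against cluster 7 alone, 18 genes lay above and 20 below 0, with a median of -0.07 (0.19 over all genes). None passed the test in edgeR, with 4 genes at an unadjusted p under 0.05 and 2.65% of 13862 genes called higher and 1.85% lower. Klf4 differed by 5.16 (SE 0.91, edgeR adjusted p = 0.00881) against cluster 8 and by 0.60 (SE 0.69) against cluster 7, on the log2 scale, and Fos by 1.09 (SE 0.41) and -0.74 (SE 0.37). DESeq2 and limma were not run on these 2 added fits. The 2 fits differ in strains as well as in mural cluster, and the part of each was not tested.

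**Figure D3:**
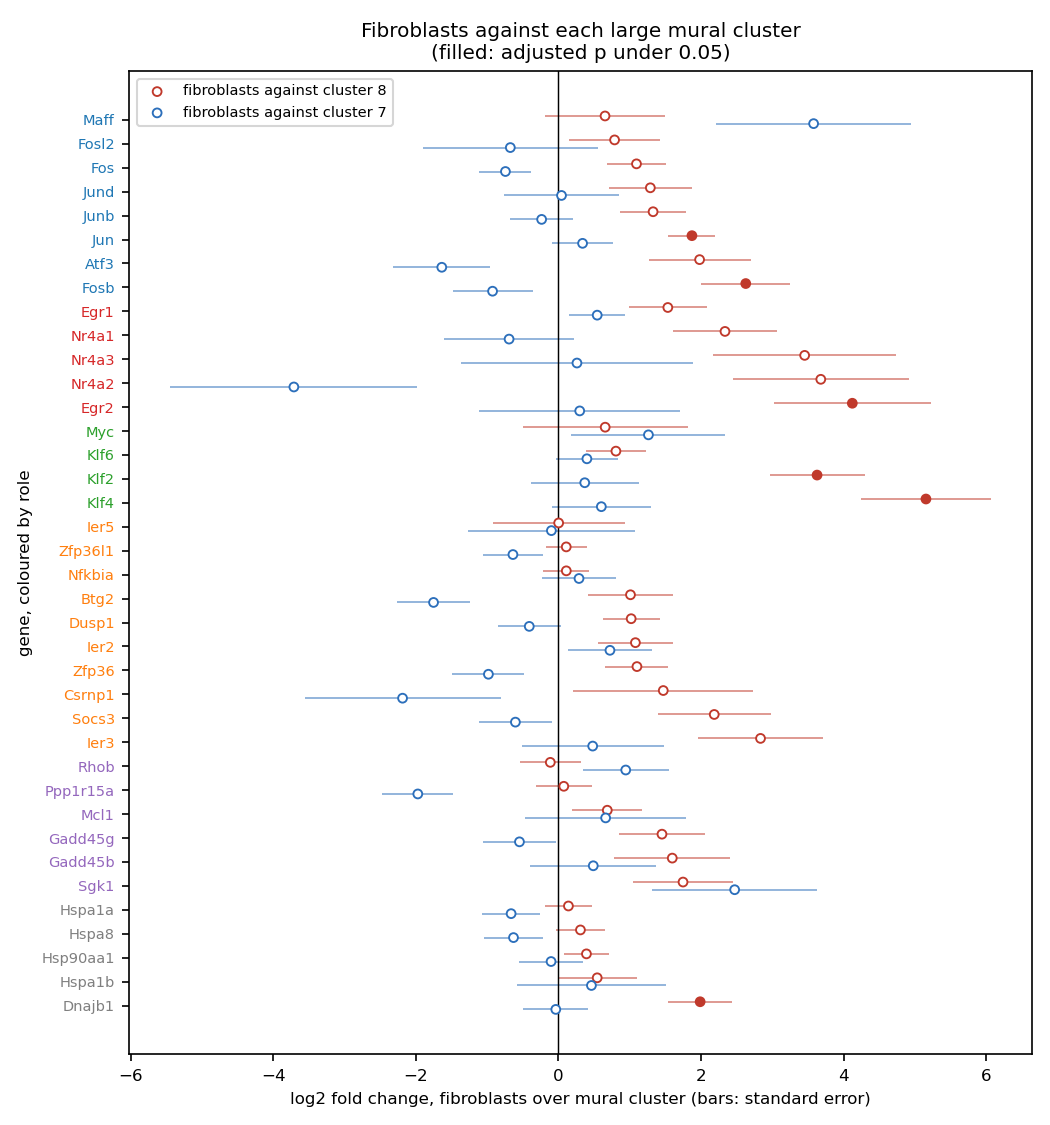
Fitted log2 fold change of each gene in fibroblasts over mural cluster 8 (red) and over mural cluster 7 (blue), with standard errors as bars and filled points where the adjusted p was under 0.05. Of the 38 red points 37 lie right of 0 and 6 are filled, whereas 18 blue points lie right of 0 and 20 left, with none filled. The blue fit left out C57BL6, which had 1 cell of cluster 7.

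Cluster 8 was compared with cluster 7 directly in the 3 strains with 3 cells or more of each, which left out C57BL6. Cluster 8 had the lower level of 33 of 38 genes, with a median log2 difference of -1.41 against 0.18 over all genes, and 17 genes had an unadjusted p under 0.05, all lower in cluster 8 (6.88% of all genes had such a p). Only Atf3 passed the test over all genes, where 0.0843% of 11867 genes were called higher and 0.11% lower. Lower in every strain were 19 genes (11.8% of all genes) and higher in every strain 1 gene, Maff (19.9%).

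Atf3 (ENSMUSG00000026628, chr1:191170296-191218039) had 510 CPM in cluster 7 of PdgfrbGFP, 1360 CPM in Cspg4dsRED and 598 CPM in Acta2GFP, against 34.3, 36.4 and 74.98 CPM in cluster 8. The groups did not overlap, and cluster 8 was lower by a fitted log2 difference of -4.11 (SE 0.66, n = 3 strains, edgeR adjusted p = 0.0314). In C57BL6, where cluster 7 had 1 cell, cluster 8 stood at 188.99 CPM. Without PdgfrbGFP or without Cspg4dsRED, with 2 strains left a side, the log2 difference was -4.08 and -3.43 and the call was lost, as it was with cells thinned (-3.77), and the adjusted p over 10 alternatives ran from 2.67e-06 to 0.441.

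Fos had 3843, 4024 and 2468 CPM in cluster 7 of PdgfrbGFP, Cspg4dsRED and Acta2GFP and 681, 659 and 1382 CPM in cluster 8. Btg2 (chr1:134075170-134079120) had 1930, 1686 and 871 CPM in cluster 7 and 305, 77.3 and 278.8 CPM in cluster 8. Both were separated in all 3 strains and did not pass the unblocked test (edgeR adjusted p = 0.125 for each), with log2 differences of -2.001 (SE 0.43) and -2.85 (SE 0.62). With strain as a block Atf3, Fos and Btg2 passed (adjusted p = 0.0108, 0.0292 and 0.0293), with 0.489% of all genes called lower. The adjusted p of Fos ran from 8.16e-07 to 0.710 and that of Btg2 from 2.17e-05 to 0.477 over 10 alternatives.

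The count of called genes in this comparison rested on single strains. Without Acta2GFP, 10 genes were called lower (0.74% of all genes), Fos, Nr4a1, Btg2, Atf3, Ppp1r15a, Zfp36, Socs3, Junb, Fosb and Dusp1. Without PdgfrbGFP or without Cspg4dsRED 0 were called, with 0% and 0.112% of all genes called. By group, 7 of 8 AP-1 genes, 5 of 5 EGR and NR4A genes, 3 of 4 Krüppel-like factors with Myc, 9 of 10 immediate early and feedback genes, 4 of 6 growth arrest and survival genes and 5 of 5 heat shock genes lay below 0.

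Further members of the list had wide differences between these clusters that did not pass in edgeR as fitted here. Klf4 had 84.4, 124.2 and 64.8 CPM in cluster 7 and 10.3, 0.750 and 2.54 CPM in cluster 8. Nr4a1 had 42.2, 2211 and 1291 CPM in cluster 7 and 27.3, 75.4 and 423 CPM in cluster 8. In both genes each strain was lower in cluster 8, and the Klf4 ranges were separated but those of Nr4a1 were not. DESeq2 called 4 genes of the list, Atf3, Klf4, Nr4a2 and Fosb, against 3.2% of all genes, and the adjusted p of Klf4, 0.404 in edgeR, ran from 0.00319 in DESeq2 to 0.9999 over 10 alternatives. Nr4a1 was called with no filter on low counts and without Acta2GFP.

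Zfp36 had 2322, 2119 and 994 CPM in cluster 7 and 480, 291.3 and 553 CPM in cluster 8. Dusp1 had 2507, 2046 and 1501 CPM against 892, 549 and 1042 CPM. Neither range overlapped, and the log2 differences were -2.13 (SE 0.50) and -1.38 (SE 0.44).

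Jun had 1488, 897 and 658 CPM in cluster 7 against 444, 366 and 418 CPM in cluster 8, and Junb had 2038, 1869 and 917 CPM against 633, 246.6 and 824 CPM. Egr1 had 1751, 1362 and 1204 CPM against 1076, 200.2 and 871 CPM. All 3 genes were lower in cluster 8 in every strain, without overlap.

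Among the chaperones Dnajb1 was separated, with 558, 780 and 405 CPM in cluster 7 against 177.5, 205.3 and 56.01 CPM in cluster 8, a log2 difference of -2.09 (SE 0.63, edgeR adjusted p = 0.303) that did not pass. The ranges of the next 3 touched or overlapped. Hspa1a had 1250, 933 and 561 CPM in cluster 7 against 519, 561 and 305 CPM in cluster 8, Hspa8 had 620, 1184 and 572 CPM against 317, 695 and 267.5 CPM, and Hspa1b had 7.36, 34.5 and 48.5 CPM against 30.2, 26.4 and 15.98 CPM. Sgk1 went the other way in 2 of 3 strains, with 1.47, 60.6 and 8.61 CPM in cluster 7 and 49.3, 73.8 and 5.08 CPM in cluster 8.

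Cluster 6 was compared with clusters 7 and 8 in 3 strains, and 0 of 38 genes passed (0.033% of 12117 genes did), with 1 gene, Atf3, at an unadjusted p under 0.05 (5.74% of all genes) and 0 called by DESeq2 or limma. In cluster 6, Atf3 had 9.80, 247.7 and 39.9 CPM in C57BL6, Cspg4dsRED and Acta2GFP, with a log2 difference of -2.33 (SE 1.06). As fitted here 19 genes lay above and 19 below 0, but this split moved with the setting, from 23 above and 15 below with DESeq2 size factors to 11 and 27 with cells thinned, and the median of the list, 0.02, was -0.60 without C57BL6 and 0.60 without Cspg4dsRED. Of these genes 8 were lower in every strain (28.8% of all genes) and 1 was higher (6.83%). The 3 cluster 6 cells of C57BL6 stood apart, with a median sum of 27208 CPM against 6864 CPM in 33 cells of Cspg4dsRED and 7339 CPM in 3 cells of Acta2GFP. Without C57BL6 29 of 38 genes lay below 0, with 7 at an unadjusted p under 0.05, and these 33 and 3 cells made up cluster 6.

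Within fibroblasts, each cluster was compared with the others to describe how the list differed between them. The authors had made these clusters from the same counts, in which genes of the list could take part. The comparisons therefore cannot test whether the list separates subtypes. Cluster 5 had the highest levels. In its 2 strains, C57BL6 and PdgfrbGFP, 38 of 39 genes lay above clusters 2 to 4, with a median log2 difference of 0.59 (0.03 over all genes), and 33 were higher in both strains (22.8% of all genes) and 0 lower (31.4%). None passed in edgeR, where 0% of 16214 genes did. An unadjusted p under 0.05 was found for 12 of them (3.89% of all genes), and DESeq2 called 5, Gadd45g, Socs3, Gadd45b, Atf3 and Ier5 (0.765% of all genes), and limma 0. Gadd45g, a growth arrest gene, had 754 and 673 CPM in cluster 5, with a log2 difference of 1.46 (SE 0.21). Pooled over strains, cluster 5 also had the fewest genes (median 3611) and counts (258505) per cell of the fibroblast clusters. Its mitochondrial (1.75%) and ERCC (2.16%) shares were the highest of them. The part of these measures in the levels was not tested.

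Cluster 1 was lower than clusters 2 to 5 for 31 of 38 genes, with a median log2 difference of -0.63 (-0.03 over all genes). Lower in every strain were 16 genes (16% of all genes) and higher in every strain 1 (6.81%). None passed in edgeR, where 1.33% of 13201 genes were called, with 8 at an unadjusted p under 0.05 (8.87% of all genes), all lower. DESeq2 called 1, Klf4, and limma 1, Jun, against 5.22% and 2.36% of all genes, so these counts are close to the background.

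Jun had 758, 921, 759 and 462 CPM in cluster 1 of C57BL6, PdgfrbGFP, Cspg4dsRED and Acta2GFP, and the log2 difference was -1.12 (SE 0.32) and lay between -0.72 and -1.34 in the single strains. With strain as a block Jun (adjusted p = 0.0277) and Socs3 (-1.78, adjusted p = 0.0452) passed, with 0.379% of all genes called lower. Over 11 alternatives the adjusted p of Jun ran from 0.0277 to 0.609 and that of Socs3 from 0.0452 to 0.828. Socs3 had 212.96, 317, 102.4 and 44.8 CPM in cluster 1.

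Cluster 3 had the higher level of 27 of 38 genes in its 3 strains, with a median of 0.33 (-0.13 over all genes) that moved with the scaling, to 0.59 with DESeq2 size factors (30 above and 8 below 0) and 0.18 with cells thinned (24 and 14). In every strain 12 genes were higher (6.14% of all genes) and 5 lower (27.3%). None passed in edgeR (0% of 14803 genes). An unadjusted p under 0.05 was found for 2 of them (6.05% of all genes), and DESeq2 and limma called 0. With strain as a block Nr4a1 (log2 difference 1.01, adjusted p = 0.00526), Zfp36 (0.76, 0.00693) and Egr1 (0.42, 0.00693) passed, with 0.176% of all genes called higher. Nr4a1 had 2222, 1792 and 1569 CPM in cluster 3 of C57BL6, PdgfrbGFP and Acta2GFP, Zfp36 had 2460, 2489 and 1260 CPM and Egr1 4769, 4346 and 2483 CPM. Over 10 alternatives the adjusted p ran from 0.00526 to 0.906 for Nr4a1, from 0.00693 to 0.9996 for Zfp36 and from 0.00693 to 0.99998 for Egr1, and the block was the only alternative that called them.

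Clusters 2 and 4 lay lower. In cluster 2, 27 of 38 genes were below clusters 3 to 5, with a median of -0.21 (0.00131 over all genes), 8 lower in every strain (11.3%) and 2 higher (6.8%). None passed in edgeR (0% of 13870 genes), with 5 at an unadjusted p under 0.05 (4.62% of all genes), 2 called by DESeq2, Gadd45g and Nr4a1 (1.22% of all genes), and 0 by limma. Nr4a1 had 715, 303, 343 and 546 CPM in cluster 2, with a log2 difference of -1.30 (SE 0.34).

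In cluster 4, 30 of 38 genes were below clusters 2, 3 and 5, with a median of -0.35 (0.00494 over all genes), 15 lower in every strain (8.6%) and 1 higher (8.25%). None passed in edgeR (0% of 14104 genes), with 4 at an unadjusted p under 0.05 (4.75% of all genes), 1 called by DESeq2 (1.3% of all genes) and 0 by limma. Gadd45b had 101.1, 112.3, 131.6 and 100.8 CPM in cluster 4 of the 4 strains, with a log2 difference of -1.33 (SE 0.24) and an edgeR adjusted p of 0.117, and it was the gene DESeq2 called.

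Plates were compared within fibroblast clusters 2 and 4, which every large plate held, to set the list beside the sort. The 2 large C57BL6 plates, heart_203s and heart_316s, gave the spread within a strain, and each reporter plate was set against both. With 1 plate on a side there is no test, and a 2-fold difference of log2(CPM + 1), which understates the change of low genes, was taken as the threshold. Of 38 genes with 10 CPM or more on average, heart_316s had 2 higher than heart_203s, Jun and Klf6 (7.93% of 9838 genes), and 2 lower, Fosl2 and Socs3 (10.6%).

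PdgfrbGFP plate heart_320s had 0 genes 2-fold above the C57BL6 plates (4.98%) and 6 below (13.6%), namely Fosl2, Maff, Egr2, Nr4a2, Nr4a3 and Gadd45b. Cspg4dsRED plate heart_517s had 0 above (14.9%) and 14 below (18.8%), among them Egr1, Atf3, Nr4a1, Klf2, Klf4, Junb, Zfp36 and Dusp1. Acta2GFP plate heart_683s had 1 above, Csrnp1 (11.5%), and 7 below (9.17%), Jund, Atf3, Nr4a2, Klf2, Ier5, Btg2 and Socs3.

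Klf4 ranged widely, with 544 and 285.4 CPM on the C57BL6 plates, 224.8 CPM on heart_320s, 64.6 CPM on heart_517s and 209.5 CPM on heart_683s. Fos had 3394 and 2277 CPM on the C57BL6 plates and 2730, 1551 and 1869 CPM on the reporter plates. Egr1 had 3801 and 2193 CPM against 2676, 1266 and 2171 CPM. In all 3 genes heart_517s was lowest, and it rested on 8 cells of cluster 2 and 13 of cluster 4, against 38 to 69 cells of each cluster on the other plates.

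No heat shock gene was 2-fold above or below the C57BL6 plates on a reporter plate. Hspa1a had 401 and 391.7 CPM on the C57BL6 plates and 649, 707 and 526 CPM on the reporter plates, above both in each case. Over the 5 heat shock genes the median log2 difference was 0.54 for heart_320s, with 1 of 5 below 0, 0.66 for heart_517s, with 0 below 0, and 0.13 for heart_683s, with 2 below 0, while the medians of the whole list were -0.14, -0.56 and -0.44. With cluster 4 alone the median of the list on heart_320s was 0.02, and 3 genes were 2-fold above on heart_517s.

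**Figure D4:**
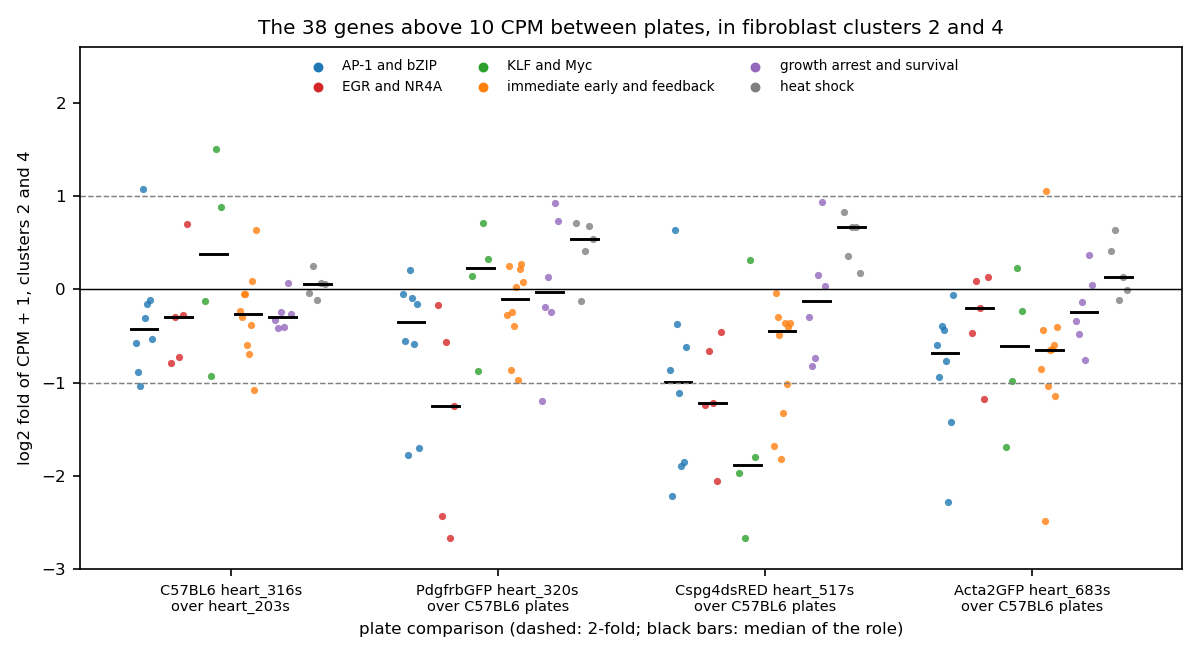
Log2 fold of CPM + 1 between plates in fibroblast clusters 2 and 4 for the 38 genes, grouped and coloured by role, with black bars for the median of a role and dashed lines at 2-fold. On the Cspg4dsRED plate the Krüppel-like factors with Myc have a median of -1.88 and the heat shock genes of 0.66.

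Cells of 1 strain and cluster also differed among themselves. In 17 groups of 20 cells or more, together 1180 cells, the ratio of the 90th to the 10th percentile of the summed level ran from 2.35 in PdgfrbGFP cluster 5 to 19.2 in Cspg4dsRED cluster 7. The median Spearman correlation between pairs of genes of the list ran from 0.06 to 0.33 and lay above the median of all gene pairs in 17 of 17 groups. The latter ran from 0.00635 to 0.0527, and the gap was smallest in C57BL6 cluster 3 (0.0647 against 0.0400). Pairs were not matched for level. The C57BL6 groups mixed plates, whose levels also differed (in cluster 5 a median sum of 38312 CPM on heart_203s and 29262 CPM on heart_316s), and depth and detection vary among the cells, so the correlations are a description of these cells.

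The tightest pairs joined AP-1 and EGR genes. Averaged over the 17 groups, the correlation was 0.63 for Fos with Junb, 0.59 for Junb with Egr1, 0.58 for Fos with Egr1 and 0.52 for Egr1 with Zfp36. Hspa1a with Hspa1b reached 0.50, a pair whose reads could be split. Mcl1, Ier5 and Sgk1 went least with the rest, with median correlations of 0.05, 0.06 and 0.06 with the other genes, against 0.22 for Egr1 and 0.21 for Btg2.

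Heat shock genes went with the other groups to a varying degree. In Acta2GFP cluster 7 (33 cells) they correlated with each other at a median of 0.68 and with the other genes of the list at 0.46, and in C57BL6 cluster 3 (90 cells) at 0.07 and 0.04. The summed level correlated with depth at between -0.32 and 0.34 over the 17 groups.

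**Figure D5:**
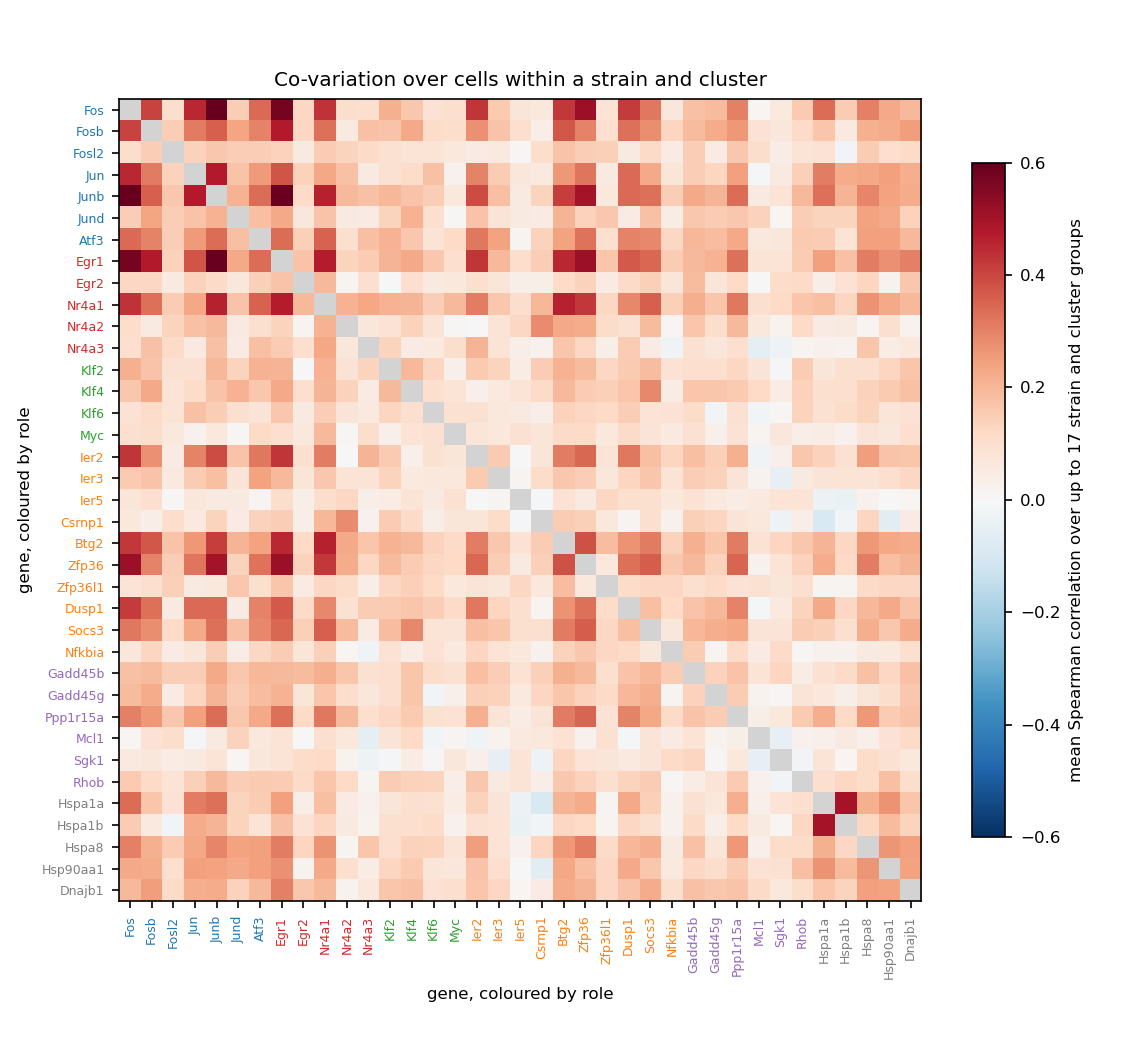
Mean Spearman correlation of each pair of genes over cells within a strain and cluster, averaged over up to 17 groups, with genes coloured by role and the diagonal in grey. The strongest colours join Fos, Junb, Egr1 and Zfp36 (0.50 to 0.63) and Hspa1a with Hspa1b (0.50).

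Genes outside the list were ranked by the lowest, over the 4 strains, of their Spearman correlation with the summed level, taken over cells within clusters, among 10061 genes with a median of -0.06. Among the 10 highest were Junos (0.36), Mt1 (0.25), Ccn1 (0.23), Gem (0.21), Gm29371 (0.21), Hspb1 (0.21), Nfkbiz (0.20) and Gm42503 (0.20). Junos is an antisense RNA that overlaps Jun on the opposite strand, over 7.28% of the exon bases of Jun, and reads over that stretch cannot be told apart here. Mt1 encodes a metallothionein, Ccn1 a matricellular protein of the serum response, Gem a small GTPase, Hspb1 a small heat shock protein and Nfkbiz a nuclear inhibitor of NF-kappaB.

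Wider lists of further immediate early genes (32 with a row) and stress or chaperone genes (17) were read from the same fits, and the shares of all genes with an unadjusted p under 0.05 were those given above for each comparison. Between fibroblasts and mural cells, Errfi1, a feedback inhibitor of EGF receptor signalling, was lower in fibroblasts (log2 difference -1.98, SE 0.35, edgeR adjusted p = 0.00953) and Bhlhe40, a clock and hypoxia factor, was higher (1.89, SE 0.41, adjusted p = 0.0229), out of 29 tested. Of these 29, 9 had an unadjusted p under 0.05, DESeq2 called 5 (12.7% of all genes) and limma 4 (9.22%). None of the 17 stress genes passed there in edgeR, with 3 at an unadjusted p under 0.05, 2 called by DESeq2 and 1 by limma; the smallest p were those of Hmox1 (2.86, SE 0.76) and Mt2 (1.70, SE 0.57). In cluster 1, Errfi1 was also lower than in clusters 2 to 5 (-3.26, SE 0.65, edgeR adjusted p = 0.0388), where 1.33% of all genes were called. Of the 26 genes tested there, 6 had an unadjusted p under 0.05, and DESeq2 called 4 (5.22% of all genes) and limma 2 (2.36%).

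In the other comparisons 0 genes of either wider list passed in edgeR, and of the stress list 0 did in cluster 1, where Mt1 (-1.48, SE 0.42) and Hmox1 (-2.50, SE 0.84) had the smallest p, 5 genes had an unadjusted p under 0.05 and DESeq2 called 1 and limma 0. Between clusters 8 and 7, Nfkbiz (-3.53, SE 1.23) and Dusp6, a phosphatase that opposes ERK (3.12, SE 1.24), had the smallest p of the immediate early list, with 4 genes at an unadjusted p under 0.05, 2 called by DESeq2 (3.2% of all genes) and 0 by limma. Of the stress list, Hspb1 (-2.13, SE 0.60) and Hspd1 (-1.77, SE 0.84) did, with 1 gene at an unadjusted p under 0.05 and 0 called by either tool. In cluster 5, Cebpd (0.98, SE 0.22), Errfi1 (0.98, SE 0.23), Mt2 (1.33, SE 0.27) and Mt1 (1.03, SE 0.22) led, with 9 and 4 genes of the lists at an unadjusted p under 0.05 (3.89% of all genes), 2 of each called by DESeq2 (0.765%) and 0 by limma.

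The genes with the smallest p in the remaining comparisons were Ier5l (1.97, SE 0.97), Ccn2 (-1.05, SE 0.52), Mt2 (-1.56, SE 0.53) and Mt1 (-0.73, SE 0.28) in cluster 2. In cluster 3 they were Klf9 (1.404, SE 0.44), Irf1 (1.69, SE 0.55), Hspb1 (-0.996, SE 0.56) and Hsph1 (-2.08, SE 1.399), and in cluster 4 Irf1 (-1.13, SE 0.29), Klf9 (-1.11, SE 0.30), Hmox1 (-1.02, SE 0.38) and Gadd45a (-0.96, SE 0.48). In cluster 6 they were Irf1 (-3.88, SE 1.31), Btg1 (-1.54, SE 0.75), Ddit4 (-4.08, SE 1.93) and Bag3 (1.06, SE 0.70). Of the immediate early list, 0, 4, 5 and 1 genes had an unadjusted p under 0.05 in clusters 2, 3, 4 and 6, and of the stress list 3, 0, 1 and 0, and among these DESeq2 called 3 genes of the immediate early list in cluster 4 (1.3% of all genes) and limma 0 in any.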

How the data were processed

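Libraries of single heart cells were made with Smart-seq2. The authors trimmed reads with Trim Galore, aligned them to GRCm38 (mm10) with TopHat2 on Bowtie or Bowtie2, removed what the methods call doublets with samtools, counted reads per Ensembl gene with featureCounts of Subread, and deposited the raw counts of all cells in 1 table. The submitters' processing notes also name bcl2fastq. The annotation release and strand setting were not given in the sources used here. The authors had also dropped cells of poor quality, cells that lacked both Pdgfra and Pdgfrb, and endothelial or immune cells by their signatures, and had made the clusters with pagoda2 from the same counts. No column of other samples was left aside (0), ERCC rows were kept out of all totals, and the reads carry no molecular identifiers, so that a count is not a number of molecules.

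For each comparison the counts of all cells on a side were added up within a strain (3 cells or more) and tested with edgeR 4.0.16 (quasi-likelihood F test, TMM, filterByExpr with a minimum count of 10) in R 4.3.3, with Benjamini-Hochberg adjustment over all genes tested and a threshold of 0.05. The strain was the replicate, because the labels name no animal, so p-values measure the spread between strains. Alternatives were DESeq2 1.42.0 and its size factors, no filter, limma 3.58.1 on log2(mean CPM + 1), cells thinned to 50000 counts, plates as units, strain as a block, clusters left out and each strain left out in turn. The same strain's 2 sides deviated together (correlations 0.19, 0.20, 0.14 and 0.21 over 9131 genes for C57BL6, PdgfrbGFP, Cspg4dsRED and Acta2GFP), so the strains pair the samples. Tables were handled with Python 3.11.15, pandas 2.3.3, numpy 2.4.6 and scipy 1.17.1, and figures drawn with matplotlib 3.10.9. The fits were tested on simulated data. Gene positions came from GENCODE M21.

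Values in every strain are given for each gene of the list that passed and, between fibroblasts and mural cells and between clusters 8 and 7, for Fos, Jun, Junb, Egr1, Atf3, Nr4a1, Klf4, Dusp1, Zfp36, Hspa1a, Hspa1b, Hspa8 and Sgk1, with the fitted values of the 2 genes with the smallest p for each wider list. Other genes were named after their values were seen. The members, the wider lists and the marker lists were chosen with earlier results of these data known. Some of the genes ranked by likeness to the summed level are not reported here.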

Additional observations from a re-analysis of the deposited data

How the results depend on the processing

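Of the counts of called genes under the alternatives, 82 stayed within 1.5 times the reported count and 24 did not, and the cause was not tested. Between fibroblasts and mural cells (3 called), 6 were called with cluster 8 and 0 with cluster 7 as the only mural cells. Both were chosen after seeing the data, and the latter left out C57BL6. With a strain left out 0 to 2 were called. For cluster 1 (0 called), DESeq2 and limma called 1 each, and thinning and the strain block 2 each. For cluster 2 (0), DESeq2 called 2, for cluster 3 (0) the block called 3, and for cluster 4 (0) DESeq2 and plates as units called 1 each. For cluster 5 (0), 1 was called with no filter and 5 by DESeq2. For cluster 8 against 7 (1), no filter called 9, DESeq2 4, limma 2, thinning 0, the block 3 and leaving out a strain 0 to 10. Past 2-fold on heart_683s were 8 genes, and 5 with cluster 2 alone. Between fibroblasts and mural cells the strain block, which uses the pairing of strains, called 2 genes, Sgk1 and Egr1, in place of Jun, Klf4 and Sgk1, and beside its calls for clusters 1 and 3 and for cluster 8 against 7 it changed no other.

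Of 413 log2 differences over alternatives for 36 gene values, 23 reversed, and 27 of the 36 never did. Between fibroblasts and mural cells, cluster 7 alone, without C57BL6, turned Fos (-0.74), Junb (-0.24), Atf3 (-1.64), Nr4a1 (-0.69), Dusp1 (-0.41) and Zfp36 (-0.98). Cluster 8 alone turned Hspa1a (0.14) and Hspa8 (0.31). Atf3 was also at -0.0195 with DESeq2 size factors and with DESeq2 and at -0.14 without clusters 1 and 6, and Hspa8 at 0.0095 with no filter, 0.083 in limma, 0.049 with the block and 0.007 with plates as units. Hspa1b in cluster 8 against 7 was at 0.23 in limma. With a strain left out Atf3 ranged from -0.67 to 1.04, Zfp36 from -0.017 to 0.73, Hspa1a from -0.28 to 0.019, Hspa8 from -0.29 to 0.25 and Hspa1b (cluster 8 against 7) from -0.95 to 0.33.

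Only 2 to 4 strains stood behind each comparison, some sums held 3 cells, and genes with few counts such as Egr3, Maff and Nr4a2 were not well measured at this depth.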
